A study of Mus musculus with 8 samples.

Results

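Hox genes were examined in mouse dorsal root ganglion (DRG) neurons, the sensory nerve cells whose bodies lie beside the spinal cord. Every gene symbol of the 4 Hox clusters made of Hoxa, Hoxb, Hoxc or Hoxd and a number was taken, which gave 39 of the 22609 gene symbols in the count tables. The Hoxa cluster contributed 11 genes, the Hoxb cluster 10, and the Hoxc and Hoxd clusters 9 each. Hox genes encode homeodomain transcription factors that give cells their position along the head-to-tail axis. Within a cluster the genes are numbered by paralogue group, and genes with low numbers at the 3′ side are used further towards the head than genes with high numbers at the 5′ side. Genes of groups 9 and 10 are known for thoracic and lumbar patterning, those of group 11 for the sacral region and those of group 13 for the tail and the distal limb.

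The 8 libraries came from naïve C57BL/6J mice aged 8 to 12 weeks, 4 from females that were all in the estrous phase and 4 from males, and the labels give sex as the single difference between the groups. In both sexes the fluorescent lectin WGA-488, which axons carry back to the cell body, was put into the skin of both hindpaws and both thigh muscles, and the DRG of lumbar levels L3 to L5 were taken 2 days later. Labelled neurons were sorted by flow cytometry and their RNA was amplified with SMART-seq2, which primes cDNA with oligo-dT. The ganglia of the 3 levels were combined before sorting, so the libraries hold no comparison between single segments, and neurons of skin and muscle cannot be told apart.

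The libraries held 4.80 to 7.33 M gene reads (M, 1e6 reads), and levels are given as CPM, reads per 1e6 gene reads, with the mean ± SD. In bulk RNA of this kind, fewer cells that use a gene and less RNA per cell cannot be told apart. The defining DRG neuron markers were present in every library, such as Tubb3, a neuronal tubulin, at 4924 ± 623 CPM (SD, n = 8) and Isl1, a sensory and motor neuron transcription factor, at 133 to 183 CPM. Of 9 spinal cord and motor neuron markers, 4 (Chat, Mnx1, Slc6a5 and Olig2) had no read in any library, and the summed level of this list was 11.3 to 22.5 CPM in females and 12.96 to 19.0 CPM in males. The genes of this list with the most reads, not corrected for length, were Aqp4, a water channel of glia, at 11.97 ± 4.55 CPM and Slc5a7, the choline transporter, at 3.16 ± 2.21 CPM. Glial and fibroblast markers were present too, and their values stand with the comparison of the sexes.

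Reads were found for 30 of the 39 Hox genes, and 26 had a mean level of at least 1 CPM. Together the Hox genes held 296 ± 25.1 CPM (SD, n = 8; range 262 to 347), and the 5 genes with the most reads took 67.4% of it (63.2% to 69.1% in single libraries). These were Hoxa10 at 43.9 ± 3.28, Hoxd1 at 43.0 ± 7.66, Hoxb5 at 39.2 ± 4.97, Hoxa7 at 39.1 ± 6.0 and Hoxa9 at 34.7 ± 5.48 CPM. The 9 genes without a read in any of the 8 libraries were Hoxa11, Hoxa13, Hoxb1, Hoxb13, Hoxc11, Hoxc12, Hoxc13, Hoxd12 and Hoxd13. With 50651800 gene reads over all libraries, a count of 0 allows a level of up to 0.0592 CPM (3 reads). Of these 9 genes, 8 belong to paralogue groups 11 to 13, and Hoxb1, at the other end of its cluster, is the exception.

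Longer transcripts collect more reads, so the order of the Hox genes was taken per kb of exon. On that scale Hoxd1 stood first with 23.1 ± 4.11 CPM per kb and was above the next gene, Hoxb5, in 8 of 8 libraries. Hoxb5 (13.9 ± 1.77) and Hoxa7 (13.6 ± 2.08) did not differ beyond the spread of their difference, and each was the higher of the pair in 4 libraries. Hoxa7 was above Hoxa10 (11.4 ± 0.854) in 7 of 8 libraries, Hoxa10 above Hoxa9 (9.92 ± 1.57) in 6 of 8, and Hoxa9 above Hoxd9 (5.35 ± 1.75) in 8 of 8. Hoxd9 did not differ from Hoxc9 (4.64 ± 0.673) beyond the spread of their difference, nor did Hoxc9 from Hoxb6 (4.42 ± 0.862). Among all genes with a known exon length, 87.4% had a mean level per kb at or below that of Hoxd1, 81.2% for Hoxb5 and 46.0% for Hoxd10. The position of Hoxa7 and Hoxa10 depended on the exon length used: with the longest annotated transcript in place of all exons, Hoxa7 had 19.3 and Hoxa10 17.1 CPM per kb, both above the unchanged 13.9 of Hoxb5.

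**Figure D1:**
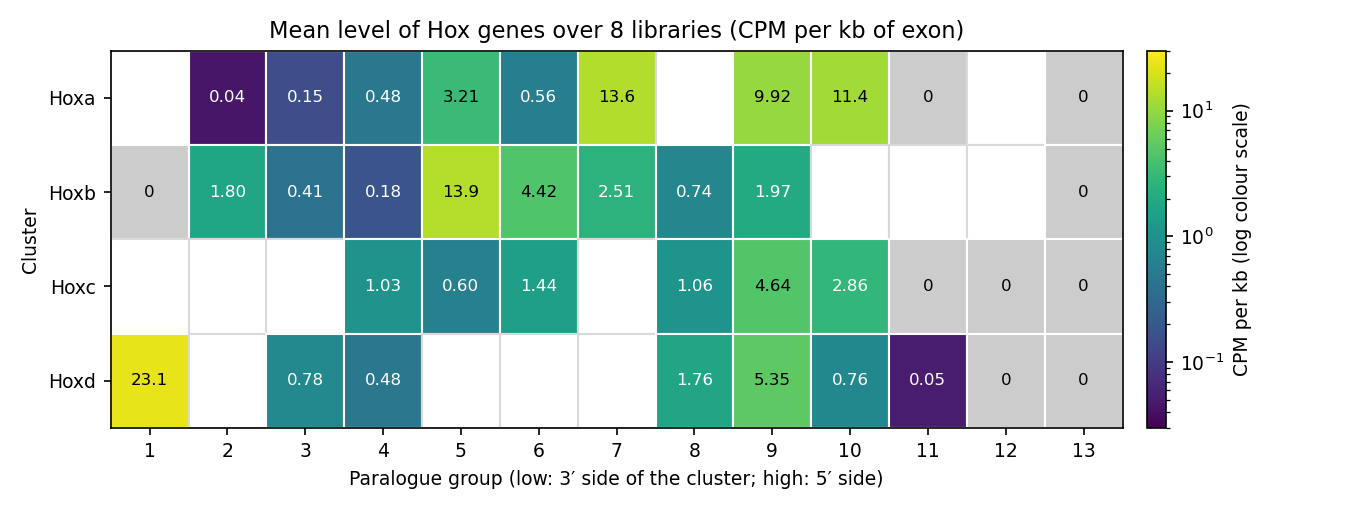
Mean level of each Hox gene over the 8 libraries in CPM per kb of exon, with the 4 clusters as rows and the 13 paralogue groups as columns; grey cells had no read in any library and white cells have no gene or no value given here. Hoxd1 has the highest value (23.1), and in groups 11 to 13 the single cell above 0 is Hoxd11.

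In the Hoxa cluster (chromosome 6, minus strand, build mm9) the high levels lay on the 5′ side and ended after Hoxa10. Hoxa7, a gene of the thoracic part of the Hox code, had 38.4, 34.9, 35.8 and 52.7 CPM in females 1 to 4 and 34.2, 36.1, 41.0 and 40.1 CPM in males 1 to 4. Hoxa9 had 37.0, 30.9, 41.5 and 42.5 CPM in females and 29.1, 27.6, 35.5 and 33.3 CPM in males. Hoxa10, which patterns the lumbar region together with Hoxc10 and Hoxd10, had 39.0, 41.8, 44.6 and 49.9 CPM in females and 46.3, 41.7, 43.4 and 44.8 CPM in males. Female 4 was the highest of the 8 libraries in each of these 3 genes, and the sexes overlapped in all of them. The coefficient of variation over the libraries was 7.46% for Hoxa10, 15.3% for Hoxa7 and 15.8% for Hoxa9. On the 3′ side, Hoxa5 was at 6.02 ± 1.31 CPM, and Hoxa2, Hoxa3, Hoxa4 and Hoxa6 each had a mean of 0.109 to 1.13 CPM and 1 read or fewer in at least 1 library. Hoxa2 had no read in the females and 3, 1, 1 and 1 in males 1 to 4. The reads of Hoxa7 are the more uncertain because 20.4% of its exon bases are shared with 2700086A05Rik, a non-coding gene listed at 0.425 ± 0.166 CPM.

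In the Hoxb cluster (chromosome 11, plus strand) Hoxb5 stood above its neighbours on both sides. Hoxb5, known from the neural crest and the enteric nervous system, had 47.2, 44.9, 42.1 and 38.1 CPM in females and 36.8, 33.9, 37.0 and 33.9 CPM in males. The lowest female lay above the highest male. Hoxb5 was the 1 such gene without overlap among the 21 tested Hox genes, against 5.47% of all genes (2.98% for higher in females). Hoxb7 had 9.49, 11.1, 11.2 and 11.5 CPM in females and 7.91, 12.5, 10.4 and 7.99 CPM in males, and the sexes overlapped. Per kb, Hoxb5 was 3.31 ± 0.976 times the level of Hoxb6 (range 2.13 to 5.06 over the 8 libraries). Hoxb6 had a mean of 9.17 ± 1.79, Hoxb2 of 5.94 ± 1.15 and Hoxb8 of 1.96 ± 0.681 CPM. Hoxb3 was at 1.23 ± 0.574 and Hoxb4 at 0.767 ± 0.551 CPM, and Hoxb1 had no read. Hoxb7 and Hoxb8 share exon bases (26.2% and 40.4% of each), and Hoxb2 and Hoxb3 share 49.4% and 37.9% of theirs with Hoxb3os, an antisense RNA without a row in the count tables, so the levels of these 4 genes are uncertain.

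In the Hoxc cluster (chromosome 15, plus strand) the highest level per kb was that of Hoxc9, which is known for setting the thoracic motor columns of the spinal cord. Hoxc9 had 12.5, 11.3, 9.37 and 12.5 CPM in females and 14.1, 10.2, 10.9 and 9.47 CPM in males. Hoxc10, a lumbar gene, had 9.62, 5.38, 5.42 and 3.87 CPM in females and 6.41, 5.35, 2.64 and 5.03 CPM in males. The sexes overlapped for both, and the coefficient of variation of Hoxc10 was 37.2%, where counting error alone gives 16.8%. Hoxc5 had 1.10, 1.74, 1.04 and 1.68 CPM in females and 1.64, 2.08, 1.16 and 3.55 CPM in males, and male 4 was its highest library. Hoxc4, Hoxc6 and Hoxc8 had means of 2.64 ± 1.04, 3.61 ± 0.979 and 2.43 ± 0.446 CPM.

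In the Hoxd cluster (chromosome 2, plus strand) the high genes lay at both sides of a low stretch. Hoxd1, known from developing nociceptors, the neurons that sense harmful stimuli, had 37.0, 42.2, 42.1 and 53.2 CPM in females and 34.5, 34.8, 53.8 and 46.3 CPM in males. Its nearest neighbour Hoxd3 was at 4.51 ± 0.999 CPM, and per kb Hoxd1 was 30.5 ± 6.34 times Hoxd3 (range 19.7 to 39.3 over the 8 libraries). Hoxd3 shares 35.8% of its exon bases with other counted genes, so its level is uncertain, and the ratio was 19.6 on unshared exon bases and 18.6 with the longest transcript of each gene. Hoxd9 had 7.70, 12.8, 17.9 and 16.5 CPM in females and 7.50, 9.95, 10.2 and 10.8 CPM in males. Females 2, 3 and 4 lay above every male for Hoxd9, and female 1 lay among the males. Hoxd10 had 15, 4, 19 and 24 reads in females and 2, 7, 9 and 17 in males, which is 2.69 ± 1.61 and 1.33 ± 0.936 CPM, and the sexes overlapped. Its coefficient of variation was 70.8%, where counting error alone gives 28.7%. Hoxd8 was at 4.82 ± 1.01 and Hoxd4 at 1.23 ± 0.757 CPM, and Hoxd4 shares 67.4% of its exon bases with Hoxd3, which makes its level uncertain too.

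**Figure D2:**
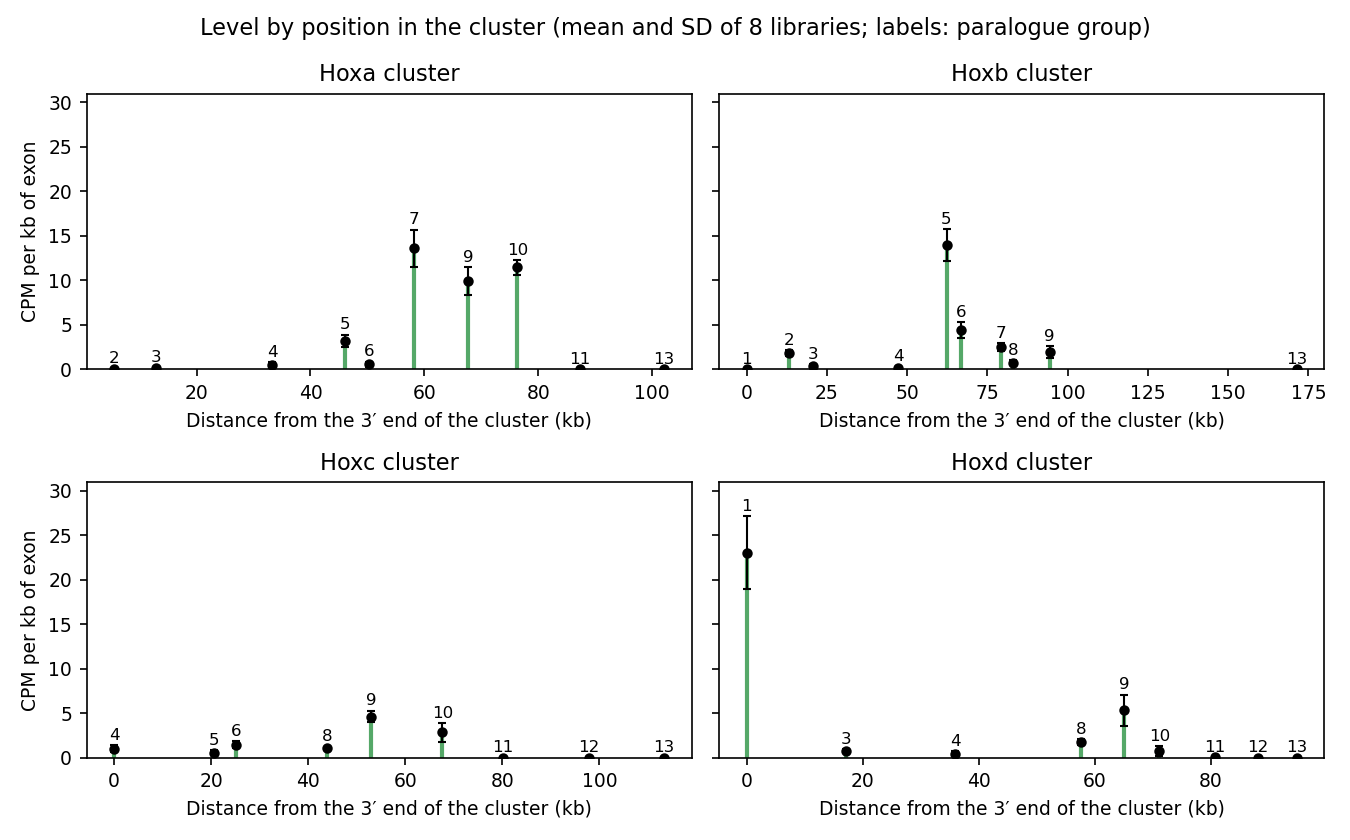
Level of each Hox gene by its distance in kb from the 3′ end of its cluster, as the mean of 8 libraries in CPM per kb of exon with the SD as error bar; the label of each point is its paralogue group. In the Hoxa cluster the points of groups 7, 9 and 10 stand at 13.6, 9.92 and 11.4 and that of group 11 at 0, and in the Hoxd cluster group 1 stands at 23.1.

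**Figure D3:**
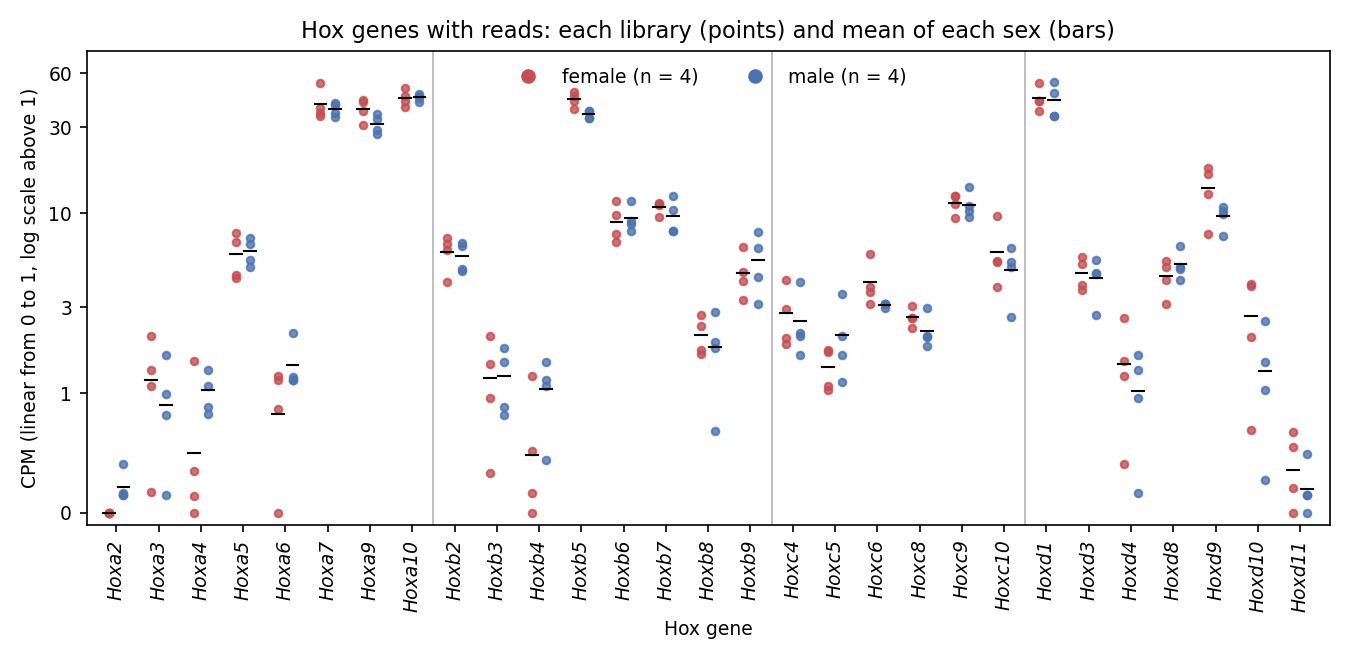
CPM of Hox genes with reads, with one point per library (4 female, 4 male) and a bar at the mean of each sex; the axis is linear from 0 to 1 CPM and logarithmic above. The points of the sexes overlap for every gene shown but Hoxb5 (lowest female 38.1, highest male 37.0) and Hoxa2, which had no read in females. Over all tested genes, the sexes did not overlap in 5.47%.

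The 5′ ends of the clusters were then compared gene by gene. In the Hoxa cluster, Hoxa10 had 2221 reads over the 8 libraries and Hoxa11, 11.02 kb further 5′, had none, so the level per kb of Hoxa10 was at least 318-fold higher (3 reads over the libraries as floor, over the exon bases that Hoxa11 shares with no other gene). Hoxc10 had 283 reads and Hoxc11, 12.4 kb away, none, a level per kb at least 99.9-fold higher. In the Hoxb cluster, which has no genes of groups 10 to 12, Hoxb9 had 24, 27, 31 and 25 reads in females and 23, 53, 39 and 30 in males, and Hoxb13, 77.0 kb away, had none, a level per kb at least 71.99-fold higher. The Hoxd cluster ended less sharply. Hoxd10 had 97 reads in all and Hoxd11, 9.58 kb away, had 14 (4, 0, 1 and 4 in females and 0, 1, 3 and 1 in males), a ratio per kb of 14.2 with a 95% counting interval of 8.06 to 26.9. Beyond Hoxa10, Hoxb9 and Hoxc10 no gene of the cluster had a read, and beyond Hoxd11 neither Hoxd12 nor Hoxd13 had one. Hoxa11 shares 38.6% of its exon bases with Hoxa11as, and reads in a shared stretch can be left out of both genes by the counting. Hoxa11as had no read either. Such floors and intervals cover counting error only, because amplified copies were counted like separate molecules.

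The promoter sequences of Hoxd1, the gene first per kb, and of the genes on either side of the 5′ end in the Hoxa and Hoxd clusters are shown, as the 250 bases before the annotated start in RefSeq (build GRCm38.p6, written 5′ to 3′ along the gene). The windows are chr2:74762730-74762979 (plus strand) for Hoxd1, chr6:52234940-52235189 and chr6:52245811-52246060 (minus strand) for Hoxa10 and Hoxa11, and chr2:74691641-74691890 and chr2:74682073-74682322 (plus strand) for Hoxd10 and Hoxd11. Hoxa10 and Hoxd11 have a second window each, with 7 and 2 CG dinucleotides, and of each pair the one nearer the 3′ end of the gene is shown. Capitals mark CG dinucleotides, the sites of DNA methylation.
Hoxd1: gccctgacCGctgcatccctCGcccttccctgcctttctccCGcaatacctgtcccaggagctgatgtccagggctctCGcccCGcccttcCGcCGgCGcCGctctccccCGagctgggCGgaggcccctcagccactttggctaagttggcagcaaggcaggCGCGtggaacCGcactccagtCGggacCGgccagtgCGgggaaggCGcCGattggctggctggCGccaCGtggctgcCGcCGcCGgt
Hoxa10: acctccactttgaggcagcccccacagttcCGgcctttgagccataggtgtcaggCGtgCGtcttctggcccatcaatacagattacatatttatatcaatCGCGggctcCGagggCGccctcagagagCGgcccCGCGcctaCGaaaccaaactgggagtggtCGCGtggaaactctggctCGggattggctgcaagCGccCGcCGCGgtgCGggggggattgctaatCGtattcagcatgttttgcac
Hoxa11: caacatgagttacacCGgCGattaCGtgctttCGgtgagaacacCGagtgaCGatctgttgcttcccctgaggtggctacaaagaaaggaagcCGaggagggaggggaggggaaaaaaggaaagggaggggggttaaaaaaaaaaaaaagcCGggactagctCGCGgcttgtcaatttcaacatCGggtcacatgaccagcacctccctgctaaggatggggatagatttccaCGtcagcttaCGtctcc
Hoxd10: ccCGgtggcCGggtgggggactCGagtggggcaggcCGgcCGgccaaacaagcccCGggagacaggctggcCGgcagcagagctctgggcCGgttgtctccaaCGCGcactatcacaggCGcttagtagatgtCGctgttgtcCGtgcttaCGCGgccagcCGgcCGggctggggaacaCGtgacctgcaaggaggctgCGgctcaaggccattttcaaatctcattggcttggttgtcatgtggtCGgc
Hoxd11: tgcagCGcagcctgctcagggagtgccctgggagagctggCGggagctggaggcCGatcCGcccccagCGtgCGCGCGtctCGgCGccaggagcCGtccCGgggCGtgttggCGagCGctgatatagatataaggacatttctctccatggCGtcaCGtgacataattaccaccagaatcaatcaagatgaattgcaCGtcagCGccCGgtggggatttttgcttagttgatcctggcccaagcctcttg
These windows held 24 CG dinucleotides for Hoxd1, 20 for Hoxa10, 13 for Hoxa11, 20 for Hoxd10 and 20 for Hoxd11. Over the 24 Hox windows in the table, which belong to 22 Hox genes, the median was 12.5, against 6 over all 32851 promoter windows. The 15 windows of Hox genes at 1 CPM or more had a median of 12 (range 3 to 28), and the 5 windows of genes without reads had a median of 13 (range 7 to 35). Motifs were searched on both strands. TTTATNG, a form of the site bound by the CDX factors that act upstream of Hox genes, was in 2 Hox windows (8.33%; Hoxb8 and Hoxd4) and in 9.81% of all windows. TGATTNAT, a form of the joint HOX and PBX site, was in 2 Hox windows (8.33%; Hoxa2 and Hoxd11) and in 2.82% of all windows. Neither motif contains the other. Hoxb9, Hoxb13, Hoxc10 and Hoxc11 are not in this table.

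Within most paralogue groups 1 member held the larger part of the summed level per kb. Hoxb2 made up 97.4% of group 2, Hoxa7 84.3% of group 7, Hoxb5 78.5% of group 5, Hoxa10 76.2% of group 10 and Hoxb6 68.3% of group 6, and each led its group in 8 of 8 libraries. Groups 3, 8 and 9 were shared more evenly, with 58.8% for Hoxd3, 49.4% for Hoxd8 and 45.3% for Hoxa9, which also led in 8 of 8 libraries. In group 4, Hoxc4 held 47.8% and led in 5 of 8, but on unshared exon bases Hoxd4 stood first, with 1.48 against 1.03 CPM per kb. In group 9 each of the 4 clusters had a member with reads in every library, with Hoxa9 at 34.7 ± 5.48, Hoxd9 at 11.7 ± 3.83, Hoxc9 at 11.3 ± 1.64 and Hoxb9 at 5.07 ± 1.68 CPM. In group 10, the ratio of Hoxc10 to Hoxa10 per kb was 0.255 ± 0.111 (range 0.122 to 0.496) and that of Hoxd10 to Hoxa10 was 0.0652 ± 0.0433 (range 0.00854 to 0.129). The first ratio was highest in female 1 and the second lowest in male 1. The ratio of Hoxa10 to Hoxa9 was 0.961 to 1.45. These 3 ranges are not comparable, because Hoxc10 and Hoxd10 had fewer reads than Hoxa9.

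The shares of the Hox reads were taken over blocks of paralogue groups. Groups 4 to 8 held 42.2% ± 1.55 of the summed Hox CPM (SD, n = 8; range 39.6% to 44.1%), group 9 held 21.1% ± 1.60 (19.7% to 24.8%), groups 1 to 3 held 19.2% ± 1.85 (17.2% to 22.5%) and group 10 held 17.4% ± 1.39 (15.5% to 20.2%). Groups 11 to 13 held 0.0898% ± 0.0805, which was Hoxd11 alone. In females and males the shares were 42.2% ± 2.07 and 42.2% ± 1.15 for groups 4 to 8, 22.0% ± 1.98 and 20.3% ± 0.399 for group 9, 18.7% ± 1.23 and 19.7% ± 2.39 for groups 1 to 3, and 17.1% ± 0.671 and 17.8% ± 1.93 for group 10. Per kb of exon, groups 1 to 3 rose to 24.3% and group 10 fell to 13.8%.

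**Figure D4:**
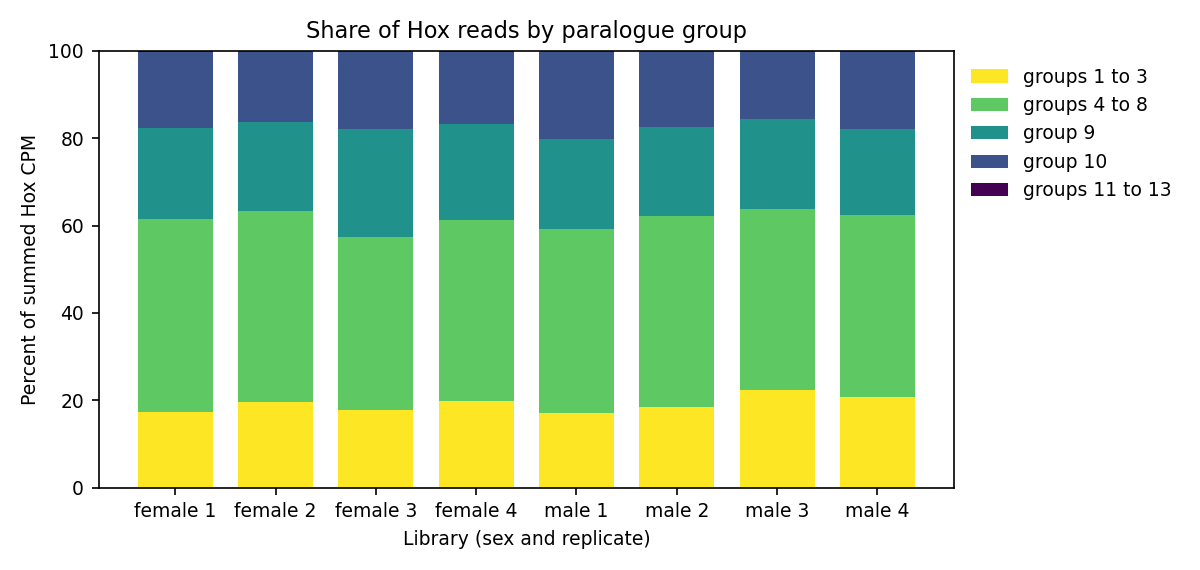
Share of the summed Hox CPM by paralogue groups in each of the 8 libraries, in percent. Groups 4 to 8 take the largest share in each library, 39.6% to 44.1%, and groups 11 to 13 (at most 0.194%) are too small to see.

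By cluster, Hoxa held 43.2% ± 2.0 of the summed Hox CPM, Hoxb 24.9% ± 2.21, Hoxd 22.6% ± 2.48 and Hoxc 9.25% ± 1.80 (SD, n = 8). Per kb of exon the order of Hoxb and Hoxd turned, with 29.2% for Hoxd and 23.8% for Hoxb. Hoxc took its highest shares in female 1 (12.4%) and male 1 (11.1%), and Hoxd its lowest in the same 2 libraries (19.3% and 19.2%). In the other 6 libraries the share of Hoxc was 7.11% to 9.43% and that of Hoxd 21.0% to 25.3%, so neither range reached those of female 1 and male 1. Per kb the Hoxc shares of female 1 and male 1 were 14.8% and 12.96%, again above the rest, and the Hoxd shares 25.04% and 25.4%, again below it. Female 1 and male 1 were also the deepest libraries, with 7.27 and 7.33 M gene reads against 4.80 to 6.76 M in the rest. The pair was singled out after the values were seen, and the part of depth in this difference was not tested.

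The sexes were compared for each gene with edgeR's quasi-likelihood test across all 12518 genes that passed the expression filter, 21 Hox genes among them. At a Benjamini-Hochberg adjusted p under 0.05, 0 of the 21 tested Hox genes were called, where 0.04% of the 12512 genes tested apart from sex-linked markers were called (0.00799% for higher in females, 0.032% for higher in males). At an unadjusted p under 0.05 again 0 Hox genes were called, against 7.07% of all genes (4.43% for higher in females, 2.64% for higher in males). DESeq2 called 1 Hox gene (Hoxb5) at that unadjusted threshold, where it called 923 over all genes, and 0 Hox genes after adjustment. At an unadjusted p under 0.1 there were 2 (Hoxb5 and Hoxd9), against 13.5% of all genes. The fold change was under 1.5 in either direction for 19 of the 21 Hox genes, against 94.0% of all genes, and above 0 on the log2 scale for 15, against 50.7% of all genes. The median log2 fold change of female over male was 0.08 for the tested Hox genes (0.0045 without male 1) and 0.00 for all tested genes. The sexes did not overlap in 1 of 21 Hox genes, higher in females, against 5.47% of all genes (2.98% for higher in females, 2.49% for higher in males). Another 9 Hox genes had reads but did not pass the filter.

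Hoxb5 had the smallest unadjusted p of the Hox genes, with 43.1 ± 3.92 CPM in females and 35.4 ± 1.76 CPM in males (SD, n = 4 each), with an edgeR adjusted p of 0.699 and a log2 fold change of 0.26 ± 0.12 (SE). The 95% interval of the fold change ran from 0.997 to 1.45. Hoxd9 followed, with 13.7 ± 4.56 CPM in females, 9.62 ± 1.46 CPM in males, a log2 fold change of 0.49 ± 0.26 and an edgeR adjusted p of 0.733. Among the genes with lower values in females, Hoxc5 had the smallest p, with 1.39 ± 0.370 against 2.11 ± 1.03 CPM, a log2 fold change of -0.62 ± 0.40 and an edgeR adjusted p of 0.775. The highest fold change was that of Hoxd10, 1.98 with an interval of 0.780 to 5.02, so neither equal levels nor a 4-fold difference was shown for this gene. The fold change of Hoxa10 was 0.980 (0.816 to 1.18), that of Hoxd1 1.02 (0.774 to 1.33), that of Hoxa7 1.05 (0.835 to 1.33), that of Hoxa9 1.19 (0.953 to 1.49) and that of Hoxc9 1.01 (0.762 to 1.33), so a 1.5-fold difference in either direction lay outside each of these 5 intervals. For Hoxb7 (1.10, 0.818 to 1.48), Hoxb9 (0.835, 0.508 to 1.37) and Hoxc10 (1.24, 0.741 to 2.07) equal levels also lay within the interval, and the lower bound for Hoxb9 and the upper bound for Hoxc10 lay past 1.5-fold. The median biological coefficient of variation was 0.185 for the tested Hox genes and 0.183 for all tested genes.

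**Figure D5:**
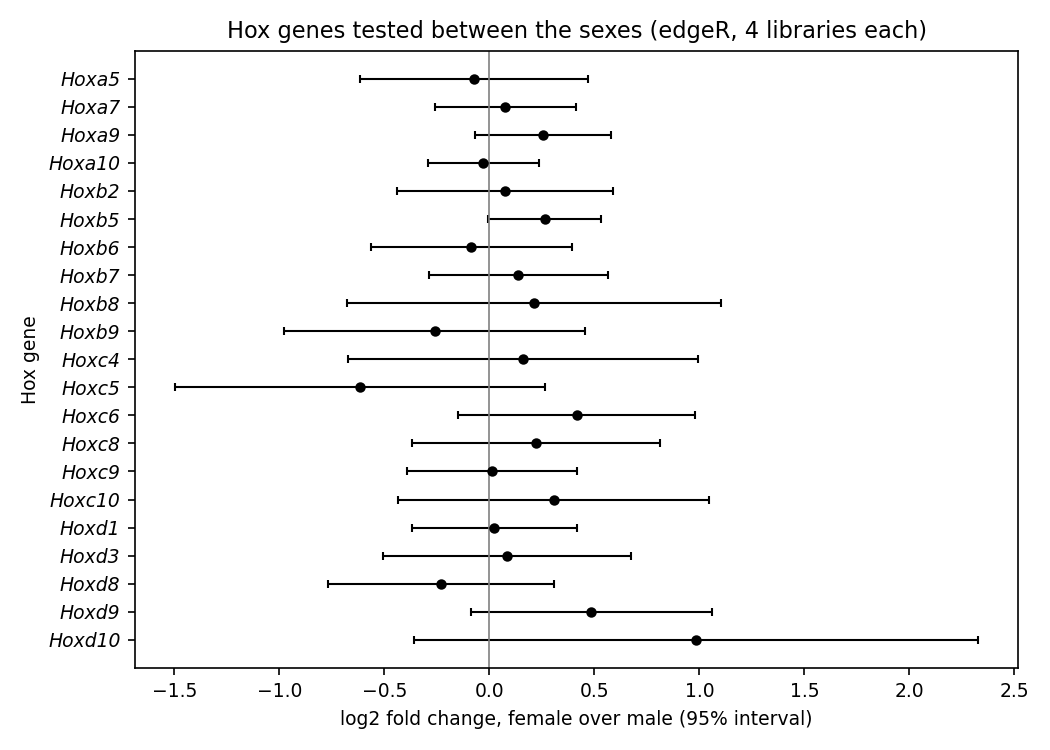
Log2 fold change of female over male libraries for the 21 tested Hox genes, from edgeR with 4 libraries per sex; bars are 95% intervals and the line marks equal levels. Every interval includes 0, the narrowest are those of Hoxa10 and Hoxb5, and Hoxd10 has the widest.

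Proteins that bind DNA together with Hox proteins were all expressed. Each of the 9 PBX, MEIS and PREP genes had a mean of at least 4.56 CPM, and per kb the first were Pknox2 (PREP2), with 128 ± 24.4 CPM, and Meis3, with 54.8 ± 5.34 CPM. At an unadjusted p under 0.05 between the sexes, 0 of these 9 were called, against 7.07% of all genes, a share at which few or none of 9 genes are called. The smallest p was that of Pknox2, with a log2 fold change of -0.33 ± 0.18 and an edgeR adjusted p of 0.734. Of the genes around the clusters, some were expressed and some had no reads. Lnp, which flanks the Hoxd cluster, was at 107 ± 31.4 CPM, and Hibadh, beyond the 5′ end of the Hoxa cluster, at 91.5 ± 8.43 CPM, while Evx1 and Evx2, the homeobox genes next to Hoxa13 and Hoxd13, had no read. The neighbour with the smallest p was Skap2, beyond the 3′ end of the Hoxa cluster, at 33.4 ± 5.79 CPM, a log2 fold change of -0.33 ± 0.15 and an edgeR adjusted p of 0.699. Of 17 neighbours and non-coding RNAs with a row in the tables, 7 had no read and 6 were tested, too few to read their count at an unadjusted p under 0.05 (0, against 7.07% of all genes). The microRNA genes Mir10a, Mir10b, Mir196a-1 and Mir196a-2, which lie within the clusters, had no read in these oligo-dT libraries, while Mir196b had 19 reads in all (0.386 ± 0.319 CPM). Mir196b overlaps exon bases of Hoxa9 (2.43% of them), so its reads cannot be told apart from those of Hoxa9 with certainty. Mature microRNAs were not measured.

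Of the genes that set or hold Hox expression, none passed the adjusted threshold, and their counts at an unadjusted p under 0.05 stand against 7.07% of all genes (4.43% for higher in females). In the list of Cdx, Gdf11 and retinoic acid genes 10 of 20 were tested and 1 had an unadjusted p under 0.05. That gene was Crabp1, a retinoic acid binding protein, higher in females at 8.34 ± 1.73 against 5.10 ± 1.40 CPM, with an edgeR adjusted p of 0.637. The receptors Rarg, at 25 ± 4.38 CPM, and Rxrb, at 18.6 ± 3.06 CPM, had the most reads of this list, not corrected for length. Of 24 Polycomb genes, which keep Hox genes silent, 21 were tested and 2 had an unadjusted p under 0.05, both higher in females. Phc1 had the smaller p, with 2.56 ± 0.80 against 1.37 ± 0.150 CPM and an edgeR adjusted p of 0.652, and Cbx6 (119.5 ± 19.4 CPM) and Ezh1 (101 ± 22.3 CPM) had the most reads, not corrected for length. Of 12 Trithorax and demethylase genes, which keep Hox genes active, 12 were tested and 1 had an unadjusted p under 0.05. That gene was Mll2, a histone methyltransferase, at 175 ± 14.1 CPM in females and 140 ± 4.87 CPM in males, with an edgeR adjusted p of 0.637. Men1, which had the most reads after Mll2, was at 111 ± 11.9 CPM. The median log2 fold changes of the 3 lists were 0.16, 0.09 and 0.05, against 0.00 for all tested genes.

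No marker of other cells passed the adjusted threshold between the sexes. Of 14 tested glial markers 5 had an unadjusted p under 0.05, all higher in females, where 4.43% of all genes were higher in females at that threshold, and their summed level was 11763 to 15179 CPM in females and 5589 to 11337 CPM in males. Sox10, a glial transcription factor, had the smallest p, at 73.1 ± 30.6 against 23.3 ± 9.06 CPM with an edgeR adjusted p of 0.413, and the most reads were those of Apoe (7379 ± 2289 CPM) and Pmp22 (1133 ± 126 CPM). Pmp22 ran the other way, with a log2 fold change of -0.10 and an edgeR adjusted p of 0.843. Of 8 tested fibroblast markers 6 had an unadjusted p under 0.05, all higher in females, again against 4.43% of all genes. Their summed levels were 147 to 199 CPM in females and 56.8 to 120.0 CPM in males. The paper reported Bgn, Mxra8, Islr and Abi3bp of these markers as higher in females in these same libraries, and also Sox10 and Cd74. Their direction was thus known beforehand, so neither the glial count nor that of the fibroblast list is an independent result. Dcn, a matrix proteoglycan, had the most reads of that list and its smallest p (34.4 ± 0.905 against 22.1 ± 2.78 CPM, edgeR adjusted p of 0.338), and Mxra8 was at 27.7 ± 9.48 CPM. Of the 10 endothelial, macrophage and blood markers, the blood genes Hbb-b1 and Hba-a1 had no read, Cd74 was at 5.00 ± 1.32 against 1.63 ± 1.17 CPM with an edgeR adjusted p of 0.637, and Cldn5 was at 2.05 ± 2.995 CPM over all libraries. Muscle and keratinocyte markers had summed levels of 8.33 to 10.2 CPM in females and 4.46 to 8.32 CPM in males, with Krt10 (4.43 ± 1.03 CPM) and Acta1 (1.69 ± 0.663 CPM, edgeR adjusted p of 0.709) at the most reads and Krt5 at 0. Of 15 tested DRG neuron markers 1 had an unadjusted p under 0.05 in each direction, against 4.43% of all genes for higher in females and 2.64% for higher in males, and Calca, a nociceptor peptide, had the smaller p (3255 ± 391 against 4075 ± 639 CPM, edgeR adjusted p of 0.656). The part of these cells in the Hox levels was not tested.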

How the data were processed

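RNA sequencing of sorted WGA-488-positive DRG neurons gave 8 libraries, grouped by the sex in the labels. Single reads of 50 bases were aligned by the authors (TopHat2, build mm9) and assigned to genes with HTSeq, and the deposited values are raw counts without normalization. Base calling used bcl2fastq, as the submitters' processing notes state. Versions, gene annotation and strand setting of the counting are not given in the sources used here, so overlapping and antisense genes cannot be told apart with certainty. The 5 summary lines of the counter were dropped. They held 57.8% to 60.5% of uniquely aligned reads as outside genes and 0.145% to 0.169% as ambiguous.

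CPM were computed on gene reads. Exon lengths came from GENCODE M1 on NCBIM37 (mm9), matched by symbol for 21627 of 22609 genes (95.7%) and for 39 of 39 Hox genes. At least 96.4% of the 50-base windows of each Hox gene occurred once in the genome, by exact match. Ratios at the cluster ends used 3 reads as floor. Sexes were compared with edgeR 4.0.16 (R 4.3.3; TMM factors, filterByExpr, sex as the single term, log2 fold changes female over male) with Benjamini-Hochberg adjustment over all tested genes. Counts over all genes leave out the sex-linked markers (Xist, Tsix and Y genes). The test was checked only on counts simulated from its own fitted model, so departures of real counts from that model were not covered. The p-values set the difference between the sexes against the spread among the 4 libraries of each sex. That spread is pooled over the sexes and drawn towards the trend over all genes. Labels give no batch or date.

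Values in every library are given for Hox genes with a mean of at least 10 CPM, the smallest unadjusted p in each direction, and the last gene with at least 1 CPM at the 5′ end of each cluster with its neighbour. Of other lists, the 2 genes with the highest CPM and the smallest p are named. Other genes named for their level, their absence or a shared exon were chosen after their values were seen. The members and lists were chosen with earlier results of these data known. The alternatives tried were limma-voom (limma 3.58.1), DESeq2 1.42.0, other scalings, filters, exon lengths, length and GC correction, a replicate block and leaving out each library. Python 3.11.15, pandas 2.3.3 and matplotlib 3.10.9 were used. The values of 1 Hox gene are not reported here. Whole ganglia, hindpaw tissue and other neuron preparations were not analysed here.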

Additional observations from a re-analysis of the deposited data

Results flagged for a closer look

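Within each sex, the 4 library values were examined for a single value far from the other 3 by Dixon's test (gap to the nearest value over the range, 95% critical value), for the 30 Hox genes with reads, the shares of paralogue groups and of clusters and the summed Hox level, 80 sets in all. It was passed by 3 sets, where chance gives about 4. Hoxa6 in male 3 was at 2.15 CPM, against 1.18 to 1.23 CPM in the other males (Dixon's ratio 0.954), which is 13 reads against 9, 8 and 8. Hoxa2 in male 1 was at 0.409 CPM, against 0.148 to 0.165 CPM (ratio 0.934), which is 3 reads against 1 in each of the others. Hoxc6 in male 4 was at 2.96 CPM, against 3.12 to 3.14 CPM (ratio 0.896), which is 20 reads against 23, 21 and 19.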

How the results depend on the processing

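The count of Hox genes past an adjusted p of 0.05 was 0 under each alternative, and the smallest adjusted p of any Hox gene was 0.267 (Hoxd9, without female 1). At an unadjusted p of 0.05, in place of 0, the count was 1 with DESeq2 (Hoxb5), 1 with library size alone (Hoxb5), 1 without the low-count filter (Hoxa2) and 0 to 2 with 1 library left out. The Hox count was 2 without female 2 (Hoxa9, Hoxd10) and 1 without female 1 (Hoxd9), female 4 (Hoxb5) or male 4 (Hoxd10). The same fits called 915, 1198, 1447 and 614 over all genes, in that order. Counts this small were not read as a result about the Hox genes. Over all genes, the 5 called after adjustment became 42 with DESeq2 and 1 to 78 with 1 library left out, with 78 without female 1, 3 without male 1 or male 2, 2 without female 2 and 1 without male 4. The 884 at an unadjusted p of 0.05 became 581 (without male 1) to 1447 (without female 4). In the cofactor, neighbour, patterning, Polycomb and Trithorax lists the 4 genes at an unadjusted p of 0.05 became 7 without the low-count filter and 2 to 9 with 1 library left out, with 2 without female 3, 7 without male 3, 8 without female 1 and 9 without female 4.

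Leaving out female 4 and male 1 together, chosen after seeing the data, gave 1 Hox gene (Hoxb5) and 7 list genes at the unadjusted threshold. That fit called 1220 over all genes, against 884 in the main fit. Without both, the log2 fold change was -0.11 for Hoxa7 and -0.17 for Hoxd1. Small differences changed sign. With length and GC trends removed, the log2 fold change was -0.025 for Hoxa7, -0.11 for Hoxc9 and -0.10 for Hoxd1. With 1 library left out, it ran from -0.093 to 0.031 for Hoxa10, from -0.071 to 0.14 for Hoxa7, from -0.057 to 0.15 for Hoxc9, from -0.015 to 0.48 for Hoxc10 and from -0.082 to 0.16 for Hoxd1. Other differences kept their sign but not their size. With length and GC trends removed, the log2 fold change was 0.17 for Hoxb5, 0.077 for Hoxb7 and 0.27 for Hoxd9. With 1 library left out, it ran from 0.33 (without female 3) to 0.70 (without female 1) for Hoxd9, from -0.81 (without male 3) to -0.25 (without male 4) for Hoxc5, from 0.64 (without male 1) to 1.51 (without male 4) for Hoxd10, from -0.45 (without female 3) to -0.025 (without male 2) for Hoxb9 and from 0.059 (without male 1) to 0.29 (without male 2) for Hoxb7. Without female 4 and male 1 it was 0.028 for Hoxb7, 0.65 for Hoxc10, 0.28 for Hoxd9 and 0.35 for Hoxd10. The median log2 fold change of the tested Hox genes, 0.08, was 0.0045 without male 1, -0.0036 without female 4 and male 1, and 0.049 with length and GC trends removed. The cause of these changes was not tested.

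The shares depended on exon length. Per kb of exon, groups 1 to 3 held 24.3% and group 10 held 13.8%, and the clusters Hoxa 36.3% and Hoxd 29.2%. Per kb of exon bases not shared with another gene, groups 1 to 3 held 24.4%, groups 4 to 8 43.9%, group 9 18.8% and group 10 12.9%, and the clusters Hoxa 36.8% and Hoxd 28.0%. Hoxa7 was then at 17.1 CPM per kb, and with the longest transcript at 19.3, where Hoxa10 was at 17.1. The ratio of Hoxc4 to Hoxd4 was 2.14 on all exon bases and 0.699 on unshared ones, and the ratio of Hoxd1 to Hoxd3 fell from 30.5 to 19.6 and, with the longest transcripts, 18.6. These length settings for ratios were chosen after seeing the data. With 1 library left out, the number of Hox genes at 1 CPM or more was 25 to 26.

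The deviations of same-numbered females and males had correlations of 0.0906, -0.107, 0.1408 and 0.00197. These lay within the range of differently numbered libraries, -0.236 to 0.148. The replicate numbers were therefore not taken as pairs, although female 1 and male 1 shared the high Hoxc and low Hoxd shares. A fit with the number as a replicate block called 1 gene in all and 0 Hox genes. Of the 18 Hox genes that were not tested, 9 had reads and 9 had none.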

Other observations

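Hox genes had a higher GC content in their exons than other genes, with a median of 53.7% over the 39 Hox genes and of 49.2% over all genes with a known exon length. Of the 39 Hox genes, 7 shared over 10% of their exon bases with another counted gene.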
